A study of Mus musculus with 22 samples.

Results

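In BV2 cells, an immortalised mouse microglial line, 7577 binding sites of the transcription factor PU.1 were found in all 3 constructs, carried the histone mark H3K4me2 in all 3, and overlapped no peak of the factor C/EBPβ in any. They are 10.5% of the 71846 PU.1 peaks called with the empty vector. The members are PU.1 peaks of the empty-vector list that share at least 1 bp with a PU.1 peak in each of the other constructs, at least 1 bp with an H3K4me2 region in each construct, and no base with a C/EBPβ peak. They are called marked sites without C/EBPβ here. They were chosen by the peak calls of PU.1, H3K4me2 and C/EBPβ in all 9 libraries, so those calls are given as a description and nothing is drawn from them.

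The series holds 22 mouse samples, and its question is how mutant huntingtin, the protein with an expanded glutamine tract in Huntington's disease, affects myeloid cells. BV2 cells carried an empty lentiviral vector with a CMV promoter (pCDH), that vector with the N-terminal part of human huntingtin bearing 15 glutamines (Nwt, the wild-type fragment), or the same part bearing 128 (Nmu, the mutant fragment). All 3 groups had been transduced and none was otherwise treated. Chromatin immunoprecipitation (ChIP-seq) at 24 h gave 1 library per antibody (H3K4me2, PU.1, C/EBPα, C/EBPβ) and construct, and poly(A) RNA gave 1 library per construct at 24 h and 1 at a second time. The labels give that time as 48 h and the header of the expression table as 6 h, so no order of the times is used. Primary cells gave 1 RNA library for each type and genotype. They were microglia sorted as CD11b-positive and CD45-low and macrophages grown from bone marrow, of mice whose huntingtin alleles both encode 7 glutamines (wild type) or both 175 (mutant).

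PU.1, encoded by Spi1, is an ETS-family factor that binds DNA around a GGAA core and is required for the macrophage and microglial lineages. It opens chromatin at enhancers and promoters of myeloid cells, which then carry H3K4me1 or H3K4me2, and many of its sites are shared with partner factors. C/EBPα and C/EBPβ are such partners in macrophages, C/EBPβ being induced by inflammatory signals, and other partners include IRF8, AP-1 and RUNX1. H3K4me2 marks both active promoters and enhancers.

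The number of tags differed between antibodies more than between constructs, from 5.256 to 5.394 M (M, mega) in the H3K4me2 libraries and from 5.362 to 7.297 M in those of PU.1, and was higher for C/EBPβ (13.604 to 17.689 M) and C/EBPα (14.713 to 24.088 M). The C/EBPβ lists held 35964, 69522 and 47893 peaks (empty vector, Nwt, Nmu), with 8.09%, 23.02% and 24.31% of tags in peaks per the file headers. A site without a C/EBPβ peak is therefore one where no peak was called at that depth, in lists whose lengths differed between constructs. The C/EBPα lists were shorter, at 11645, 19732 and 9117 peaks, with 2.38%, 4.10% and 3.88% of tags in peaks. Fewer C/EBPα sites could thus be seen. The implied depth of the RNA libraries was 10.8 to 14.1 M reads in BV2 cells and 28.9 to 47.9 M in primary cells. Of 10 microglial and macrophage marker genes, 8 reached an RPKM (reads per kilobase of transcript per M) of 1 in all 6 BV2 RNA libraries, and the defining microglial gene Cx3cr1 reached it in none. No neutrophil, lymphocyte, astrocyte, neuron, oligodendrocyte or endothelial marker reached it in all 6. The neutrophil gene S100a8 reached it in 4 (up to 3.84) and the neuronal gene Tubb3 in 3 (up to 2.11). Intervals over sites below are 95% Wilson intervals. They cover counting error over sites only, because each antibody and construct has 1 ChIP library, and no difference between constructs in the ChIP data has a replicate test.

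Of the 71846 empty-vector peaks, 44105 were also called with the wild-type fragment and 38336 with both fragments. These 38336 are called constant sites. H3K4me2 lay over 13952 of them in all constructs, and 7577 of those had no C/EBPβ peak, which is 54.3% of the marked constant sites and 19.8% of the constant sites. Most constant sites without C/EBPβ were not marked at all: 57.3% had H3K4me2 in no construct, 8.1% in 1 and 6.84% in 2. C/EBPβ lay over 24.3%, 40.0% and 34.0% of the marked constant sites with the empty vector, the wild-type fragment and the mutant fragment, the order of the lengths of the 3 lists. For comparison, sites marked in all constructs with C/EBPβ in all (2934 sites) are called joint sites, and sites with no H3K4me2 and no C/EBPα or C/EBPβ peak in any (15578 sites) are called bare sites.

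**Figure D1:**
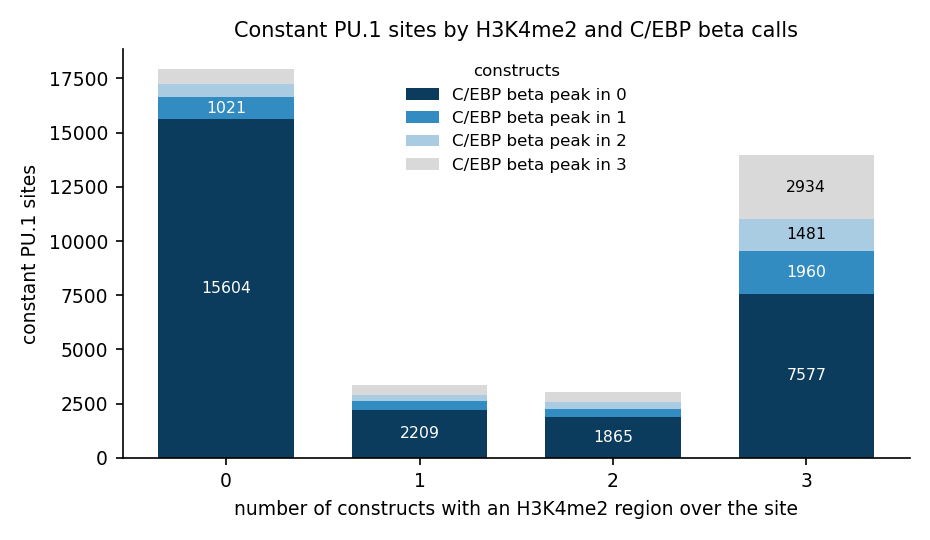
Number of the 38336 constant PU.1 sites (vertical axis) by the number of constructs with H3K4me2 (horizontal axis), split by the number of constructs with a C/EBPβ peak. The class described here is the part with H3K4me2 in all 3 and C/EBPβ in none, 7577 sites, and unmarked sites without C/EBPβ are the most numerous at 15604.

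At the edges of the rule, 10 members shared as little as 1 to 20 bp with the PU.1 peak of wild-type-fragment cells and 12 with that of mutant-fragment cells, and 115 shared 1 to 20 bp with H3K4me2 in at least 1 construct. Just outside, 266 marked constant sites had a C/EBPβ overlap of at most 20 bp, against a median largest overlap of 110 bp over the 6375 marked constant sites left out. Just inside, 190 members had the edge of a C/EBPβ peak within 20 bp and 880 (11.6%) within 100 bp.

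The promoters of 5 myeloid genes show what such a site looks like when it lies at a transcription start. They belong to listed genes with the centre of a member 0 to 200 bp upstream of the start (29 genes), and were taken where RefSeq gives 1 promoter for the gene and its span is the same in both builds. Each run is 300 bases, from 250 before to 50 after the RefSeq start, written 5′ to 3′ on the strand of the gene. Capitals mark every ETS core, GGAA or its reverse complement TTCC.
Adora3: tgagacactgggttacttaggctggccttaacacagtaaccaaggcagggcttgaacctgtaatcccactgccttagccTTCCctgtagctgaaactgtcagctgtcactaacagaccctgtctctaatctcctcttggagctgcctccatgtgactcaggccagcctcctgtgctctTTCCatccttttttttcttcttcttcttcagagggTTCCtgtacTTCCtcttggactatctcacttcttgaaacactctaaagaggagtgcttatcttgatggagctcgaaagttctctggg
Fcer1g: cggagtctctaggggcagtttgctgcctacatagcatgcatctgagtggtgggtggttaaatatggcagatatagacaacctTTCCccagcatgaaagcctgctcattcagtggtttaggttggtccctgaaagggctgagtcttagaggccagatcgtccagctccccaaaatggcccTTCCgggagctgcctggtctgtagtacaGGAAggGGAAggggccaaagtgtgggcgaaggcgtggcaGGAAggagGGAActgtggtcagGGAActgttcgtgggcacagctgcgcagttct
Fcgr2b: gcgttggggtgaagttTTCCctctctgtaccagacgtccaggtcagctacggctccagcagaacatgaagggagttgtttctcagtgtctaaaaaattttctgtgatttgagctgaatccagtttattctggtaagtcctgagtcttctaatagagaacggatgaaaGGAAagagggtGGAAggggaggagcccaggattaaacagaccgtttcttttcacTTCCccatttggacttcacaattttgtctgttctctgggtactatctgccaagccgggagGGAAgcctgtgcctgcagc
Fcgr4: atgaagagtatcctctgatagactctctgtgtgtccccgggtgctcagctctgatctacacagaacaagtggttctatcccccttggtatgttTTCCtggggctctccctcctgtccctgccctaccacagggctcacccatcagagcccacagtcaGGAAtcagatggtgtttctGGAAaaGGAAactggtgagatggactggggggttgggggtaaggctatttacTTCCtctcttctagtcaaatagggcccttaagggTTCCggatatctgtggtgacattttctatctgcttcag
Was: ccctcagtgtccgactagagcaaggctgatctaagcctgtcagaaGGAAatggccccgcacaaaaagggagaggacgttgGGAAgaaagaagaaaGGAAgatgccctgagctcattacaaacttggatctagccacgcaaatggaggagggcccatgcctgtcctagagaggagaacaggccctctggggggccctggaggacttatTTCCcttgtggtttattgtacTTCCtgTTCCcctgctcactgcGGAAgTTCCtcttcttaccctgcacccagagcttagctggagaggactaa
The sequences are from RefSeq on GRCm38.p6, at chr3:105904171-105904470 (plus strand, Adora3), chr1:171234300-171234599 (minus, Fcer1g), chr1:170976022-170976321 (minus, Fcgr2b), chr1:171018676-171018975 (plus, Fcgr4) and chrX:8090442-8090741 (minus, Was). The peaks, which the authors gave on the older mm9 build, lie at chr3:105707245-105707391, chr1:173164421-173164567, chr1:172906161-172906307, chr1:172948969-172949115 and chrX:7667554-7667700. No coordinate was converted. The peak and the sequence were joined through their distances to the same start.

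The centres of these 5 peaks lay 21.5 bp (Adora3), 13.5 bp (Fcer1g), 31.5 bp (Fcgr2b), 15.5 bp (Fcgr4) and 9.5 bp (Was) upstream of the start. Of the 4 cores in the Adora3 promoter, 3 lay under the 147-bp peak. The counts were 6 of 7 for Fcer1g, 4 of 5 for Fcgr2b, 4 of 6 for Fcgr4 and 5 of 8 for Was. The core is common, and 96.0% of the 32851 RefSeq promoters of this length hold one on either strand. The longer PU.1-type GAGGAA, which contains the core, was under the peak in Adora3, Fcgr4 and Was and is in 28.3% of all promoters. GAGGAAGT, an extension of it, was under the peak in Adora3 and Fcgr4 and is in 3.2% of them. The C/EBP-type TTNNGNAA was under the peak in Fcgr4 only (40.7% of all promoters), the AP-1-type TGANTCA in Adora3 only (7.81%) and the RUNX-type TGTGGT in Fcer1g, Fcgr4 and Was (16.8%). These are matches of letters on either strand in a window, not binding sites. A share over all members at starts was not computed. RefSeq sequences were found for 222 of the 281 genes with a member in the window, 79.0%, which is under the 80% set for such a check, and the check is void for that reason.

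The 5 genes were transcribed at very different levels. Fcer1g encodes the γ chain shared by activating Fc receptors, and its RPKM was 170.5 and 97.9 with the empty vector (24 h, then the second time), 168.5 and 123.4 for Nwt and 128.1 and 159.0 for Nmu. The groups overlap. Fcgr2b, the inhibitory Fc receptor, was at 67.3 and 31.5, at 67.7 and 33.8, and at 17.3 and 26.8 in the same order, so both mutant-fragment libraries were lowest at their time (log2 difference to the empty vector -1.07 ± 0.45, SE, adjusted p = 0.355 by limma). Fcgr4, another Fc receptor, lay between 8.32 and 14.6, and Was, the Wiskott-Aldrich actin regulator of blood cells, between 5.92 and 7.59. Adora3, the adenosine A3 receptor, stayed between 0.133 and 0.863 in BV2 cells although its start carried a member, and was at 20.9 and 17.7 in wild-type and mutant microglia.

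Members lay at transcription starts more often than the other classes. The centre was within 1000 bp of a RefSeq start for 1257 members, 16.6% (15.8 to 17.4%), against 9.03% (8.05 to 10.1%) of joint sites, 1.83% (1.63 to 2.05%) of bare sites and 7.18% of all constant sites. H3K4me2 marks promoters and is part of the rule for members and joint sites alike, so the difference from bare sites was partly chosen. Members and joint sites differ in the rule only by C/EBPβ, and their intervals do not overlap. These intervals take sites as independent and are no test between the classes. The 2 classes also differed in H3K4me2 width and place in the PU.1 list, given below, and what underlies the difference was not tested. Within 100 bp of a start, however, the shares of members and joint sites were 2.71% and 2.62%, so the difference lay farther out. The median distance to the nearest start was 9611.5 bp for members, with quartiles of 1760.5 and 32468.5 bp, 16699.5 bp for joint sites and 29590 bp for bare sites. Most members were still away from starts: 49.2% lay over 10 kb and 431 (5.69%) over 100 kb from one. Away from starts, 45.2% of members lay inside a transcript and 38.2% between genes. Within 1000 bp, 652 members lay upstream and 605 downstream of the start, and within 250 bp 235 lay upstream and 128 downstream.

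**Figure D2:**
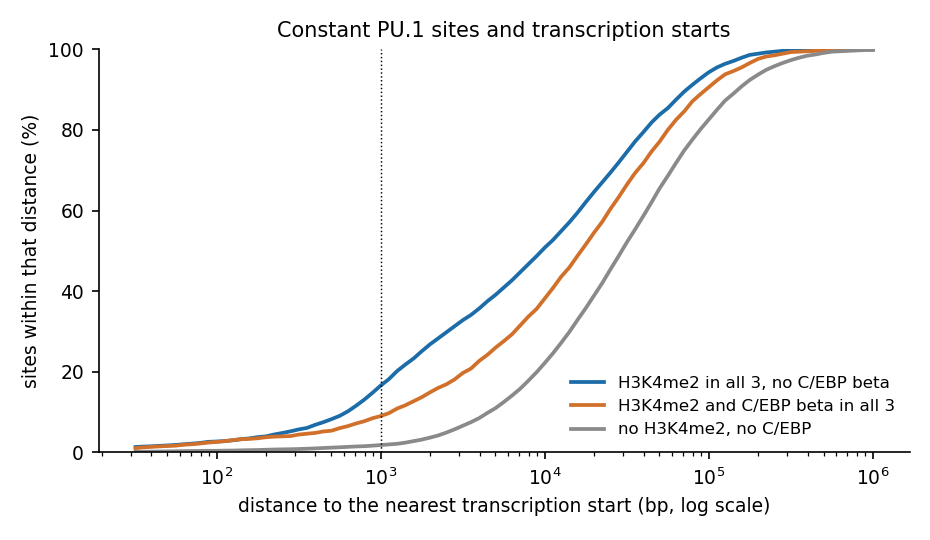
Cumulative percent of sites (vertical axis) by distance from the peak centre to the nearest RefSeq start (horizontal axis, bp, log scale) for members, joint sites and bare sites. The curve of members lies above that of joint sites beyond 200 bp, with 16.6% of members, 9.03% of joint sites and 1.83% of bare sites within 1000 bp.

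C/EBPα peaks, which the rule did not use, were nearly absent from members. The share is not independent of the rule, however. The C/EBPβ lists were longer than the C/EBPα lists in every construct, and most sites with C/EBPβ in all constructs also had C/EBPα. Barring C/EBPβ from members and requiring it at joint sites therefore sets much of the difference in advance. The shares are a description, and what part goes beyond the rule was not tested. With the empty vector its peaks overlapped 30 members, 0.396% (0.277 to 0.565%), against 52.3% of joint sites and 6.3% of constant sites. With the wild-type fragment the share was 1.25% (1.03 to 1.53%) of members and 72.9% of joint sites, and with the mutant fragment 0.541% (0.399 to 0.733%) and 46.5%. The order of the constructs is that of the lengths of the C/EBPα lists (11645, 19732 and 9117 peaks) for joint sites, while members were lowest with the empty vector. In all, 149 members (1.97%) had a C/EBPα peak in at least 1 construct and 1 had it in all. That site, inside Soat1, which encodes a cholesterol-esterifying enzyme, lies at chr1:158397881-158398027, and its nearest C/EBPβ peak centre is 145 bp away. It was singled out after its values were seen. Among joint sites 79.6% had C/EBPα in at least 1 construct and 35.3% in all.

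**Figure D3:**
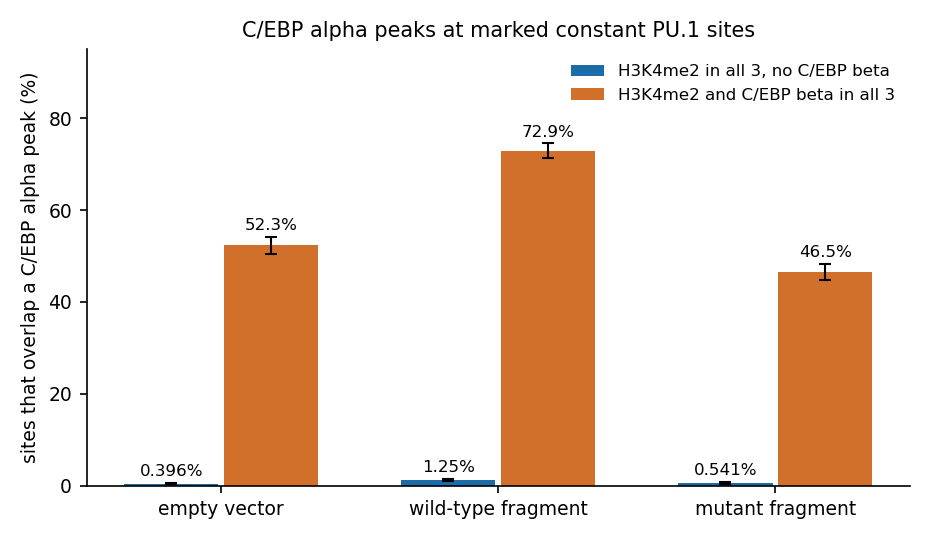
Percent of sites overlapped by a C/EBPα peak (vertical axis) in each construct for members (no C/EBPβ) and joint sites (C/EBPβ in all), with 95% Wilson intervals over sites (1 library per construct). Members lie between 0.396% and 1.25%, and joint sites between 46.5% and 72.9%.

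Although no C/EBPβ peak overlapped a member, many were close by. The nearest C/EBPβ peak centre, over the 3 lists, was a median of 894 bp away (quartiles 389 and 2829 bp), against 6470.5 bp for bare sites. The rule keeps it from being nearer than about the width of a peak, and the smallest distance was 144 bp. It was within 300 bp of 17.5% and within 500 bp of 2488 members (32.8%). Over all constant sites, which include those overlapped by C/EBPβ, the median was 1270 bp and the share within 500 bp 39.2%. C/EBPα was farther away, at a median of 5199 bp, and 15.0% of members had it within 500 bp in at least 1 construct, against 81.5% of joint and 0.777% of bare sites. So a member could lie within the same marked region as a C/EBP peak while sharing no base with it.

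The H3K4me2 regions over members were wider than the average region in each list. Their median width was 2220, 2055 and 1970 bp with the empty vector, the wild-type fragment and the mutant fragment, against 1318, 1233 and 1154 bp over all regions of the lists, which were called separately in each library. Regions over joint sites were between these, at 2011, 1878 and 1812 bp. A wide region has more chance to cover a site, so the excess over all regions describes how members were chosen. Of the 39503 empty-vector regions, 6820 (17.3%) covered a member, of which 6146 covered 1, 599 covered 2 and 75 at least 3. The PU.1 peak sat a median of 608.5 bp from the nearer edge of its empty-vector region. At 1000 bp to the left and right of the centre, H3K4me2 regions covered 47.6% and 48.2% of members with the empty vector, at 2000 bp 26.6% and 26.9%, and at 3000 bp 19.3% and 20.2%. The coverage was thus even on both sides and, at 1000 bp, somewhat above that of joint sites (42.9% and 46.5%). At bare sites it was 3.47% and 3.29%.

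**Figure D4:**
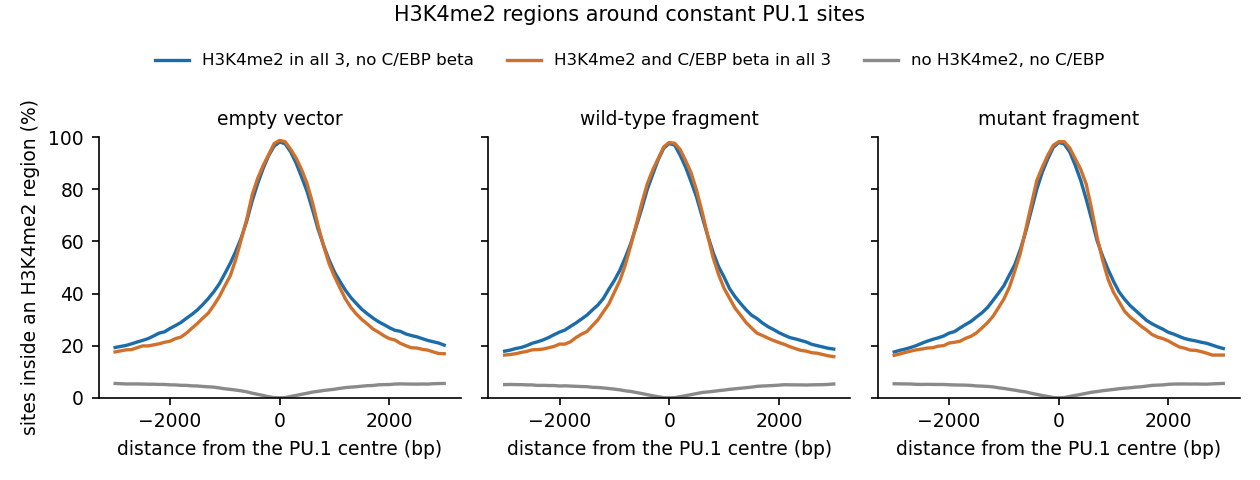
Percent of sites covered by an H3K4me2 region (vertical axis) at each distance from the PU.1 peak centre (horizontal axis, bp) for members in each construct, and for joint and bare sites. Members fall from 98.1% at the centre to 47.6% and 48.2% at 1000 bp with the empty vector, and the 3 constructs follow nearly the same curve.

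Between constructs the marked regions changed little in extent. The median log2 ratio of the width over members was -0.07 for the mutant fragment against the empty vector (quartiles -0.32 and 0.11), -0.05 for the wild-type fragment against the empty vector and -0.02 between the fragments. The medians for joint sites were -0.06, -0.05 and -0.01. A change in width of at least 1.5 times between mutant-fragment and empty-vector cells was seen at 537 members (wider) and 1045 members (narrower). For the wild-type fragment against the empty vector the counts were 415 wider and 903 narrower. For the mutant against the wild-type fragment they were 755 wider and 760 narrower. The excess of narrower regions was thus seen with both fragments against the same empty-vector library, and hardly between the fragments. Part of the narrowing was 1 region split into several. Of the bases of the 6820 regions, a median of 91.9% were also called with the wild-type fragment and 90.8% with the mutant fragment, while 480 (7.04%) and 523 (7.67%) regions were called there in at least 2 pieces. Under 50% was kept in 147 (2.16%) and 175 regions (2.57%).

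The widest marked regions over members were those of 2 long non-coding RNA genes of nuclear bodies. The Malat1 region, at chr19:5796289-5819663, was 23375, 22804 and 23998 bp wide in the order above, with 1 member, and the Neat1 region 19075, 16063 and 18533 bp, with 3. The region over Ptgir, which encodes the prostacyclin receptor, had 4 members and was 15578, 13967 and 14229 bp wide. Most members in 1 region, 5, were at Ocstamp, which encodes a membrane protein of osteoclast fusion (chr2:165224709-165234650). The Bmf region went from 14641 and 14772 bp to 5463 bp with the mutant fragment, where 91.8% of its bases were still called but in 2 pieces. In contrast, the region at Atp6v0d2, which encodes a proton-pump subunit of macrophages and osteoclasts, kept 58.9% of its 4660 bp with the wild-type fragment and 16.7% with the mutant fragment (chr4:19845561-19850220). Bmf and Atp6v0d2 were picked after their values were seen.

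The order of the deposited lists was used because the score is 1 for every peak. The meaning of that order is not stated, but the places of constant sites in the empty-vector list and in the other lists were correlated (Spearman's rho 0.82 and 0.79 over 38336 sites that share their positions). The median place of members was at 22.3%, 31.8% and 27.7% of the list, against 17.4%, 24.5% and 20.1% for joint and 36.4%, 46.4% and 39.7% for bare sites. All constant sites, which like members had to be called in every list, had median places of 27.5%, 36.7% and 31.1%. In the first 10% of the list lay 23.8%, 17.4% and 20.0% of members and 18.7%, 14.0% and 16.8% of constant sites. The member that came first in the empty-vector list, at place 15 there and 28 and 15 in the others, was in the Vil1 locus (chr1:74486177-74486323). One member at place 56 of the empty-vector list, chr2:129199191-129199337, lies 2407.5 bp upstream of Il1b, the gene of interleukin-1β. The PU.1 peak centre moved by a median of 10 bp between constructs.

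The median distance to the next member was 24384 bp, 1154 members (15.2%) had another within 2 kb and 269 (3.55%) within 500 bp. The share of constant sites that were members was 24.4% on chromosome 17 and 11.4% on chromosome X, where 87 members lay. With the nearest start within 100 kb, 7146 members fell to 4798 gene symbols. Of these 3325 had 1 member, 956 had 2 and 517 had 3 or more.

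Genes with a member were mostly transcribed in BV2 cells. Their mean RPKM over the 6 BV2 libraries was 1 or more for 68.0% (66.7 to 69.3%) of genes, for 83.1% of those with a member at the start and for 82.4% of those with at least 3 members. The share was 66.0% for genes nearest to joint sites, 49.9% for genes nearest to bare sites and 41.6% of all 23953 gene symbols. The median level was 0.0212 RPKM for genes without a member, 2.6 with 1, 3.44 with 2 and 5.14 with 3 or more. Both H3K4me2 and nearness to a start go with transcription, and their part in these levels was not tested.

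The 12 genes with the most members had 7 to 9 each. Irf2bp2, a co-repressor that limits macrophage inflammation, Zfp217, a zinc-finger repressor, Fam105a, and the non-coding RNA genes Gm14005 and A530013C23Rik had 9 each. Dgkz, which turns diacylglycerol into phosphatidic acid, and Zmynd8, a chromatin reader, had 8, and Trim8, Ggta1, Fmn1, Socs3 and Zfhx3 had 7. The 9 members of Irf2bp2 were spread from 90327.5 bp upstream to 51128.5 bp downstream of its start, none of them within 1000 bp of it. Of the 8 at Zmynd8, 5 lay within 1000 bp of one of its starts. Their levels ranged widely. Irf2bp2 was at 13.2 to 24.3 RPKM in the BV2 libraries, Dgkz at 16.8 to 28.6, Socs3, the feedback inhibitor of cytokine receptors, at 1.54 to 2.98, and A530013C23Rik at 0.1 to 0.307.

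Several myeloid gene lists had members at most of their genes, beside 20.0% of all gene symbols and 32.8% of the 9958 expressed in BV2 cells. Among signalling genes downstream of immune receptors the count was 24 of 28 (85.7%), with a member at the start of 15. Plcg2, phospholipase Cγ2, had 6 members, Rasgrp3, an activator of Ras, had 5, and the GTPase Rac2 and the phosphatase Inpp5d had 3 each. Among genes of the actin cytoskeleton and adhesion it was 25 of 30 (83.3%), such as Cotl1 and Wipf1 with 4 and Capg and Fmnl2 with 3. Among myeloid transcription factors it was 42 of 53 (79.2%), with 90 members in all but a member at the start of only 9. Rara, the retinoic acid receptor α, had 5, and Nfe2l2, the factor of the oxidative stress response, and Irf8 had 4 each. The 4 members of Irf8 lay 26975.5 and 16247.5 bp upstream and 6360.5 and 27091.5 bp downstream of its start, so all were distal. Spi1, which encodes PU.1, had members 709.5 and 12079.5 bp upstream of its start. These lists held other PU.1 sites too. Of the 28 signalling genes 19 had a bare and 12 a joint site. The counts were 17 and 13 of the 30 cytoskeletal genes and 38 and 22 of the 53 transcription factors. Over all 23953 symbols they were 7850 and 2116.

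Surface receptors, cytokines and lysosomal genes had members less often than these, though above the share of all symbols. Among myeloid receptors and adaptors 22 of 36 (61.1%) had one, such as Sirpa and Emr1, the gene of F4/80, with 4 and Itga4 and Fcgr1 with 3. Among lysosomal and phagosomal genes it was 16 of 30 (53.3%), with Psap, the prosaposin gene, at 4 and a member at the start of Lamp1. The count for Toll-like receptor and NF-kB genes was 16 of 30 (53.3%). Cd180 had 6, Tlr13 had 4 and Tlr2 and its family's co-receptor Ly96 had 3 each. Among cytokines and chemokines it was 14 of 29 (48.3%), with Csf1, the macrophage growth factor, at 6, Il1a at 4, Ccl3 at 2 and Tnf at 1. Lower shares were found for antigen presentation genes (7 of 20, 35.0%, among them Cd86, Cd40, H2-K1 and Psmb8), interferon-stimulated genes (6 of 22, 27.3%, among them Irf9, Oasl2 and Oas2), neutrophil genes (4 of 15, 26.7%, Cebpe among them), genes of other brain cells (4 of 18, 22.2%) and lymphocyte genes (3 of 14, 21.4%, Cd5 among them). Of 11 genes of huntingtin and its partners 5 had a member, Gapdh with 2. Bare and joint sites were found at 20 and 16 of the receptor genes and at 19 and 15 of the lysosomal genes. The counts were 15 and 11 for Toll-like receptor and NF-kB genes and 13 and 14 for cytokines and chemokines. PU.1 sites near genes of these lists were thus not particular to members. The lists were chosen with earlier results known, and the shares were not tested against each other.

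Of 24 homeostatic microglial genes 18 (75.0%) had a member, 14 a bare site and 6 a joint site. Of the 24, 12 reached a mean of 1 RPKM in BV2 cells. Some with members stayed low there. Olfml3 had 3 members, 1 of them 450.5 bp upstream of its start, and lay at 0.041 to 0.168 RPKM in BV2 cells, against 198.7 and 147.3 in wild-type and mutant microglia. Adora3, described above, had 6. P2ry13, a purinergic receptor, had 2 members and up to 0.294 RPKM in BV2 cells against 160.6 and 129.8 in microglia, and Gpr34, also a receptor, had 1 and was at 0.048 at most against 464.4 and 373.0. Cx3cr1, the fractalkine receptor, had a member at its start and 0.074 RPKM at most against 463.8 and 331.6. C1qb and C1qc, complement subunits with 1 member each at the start, were transcribed in both, at 11.1 to 61.0 and 4.34 to 18.5 RPKM in BV2 cells. Over all genes with a member, 1356 (28.3%) stayed under 1 RPKM in all 6 BV2 libraries, and 30 of these (2.21%) reached 10 in both microglial libraries. Among all symbols the shares were 55.2% and 1.04%. Each primary group is 1 library, so these differences have no replicate check.

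RNA of the genes nearest to members was then compared between constructs, which the rule did not use. In limma on log2(RPKM + 1), with construct and time as terms over the 6 BV2 libraries, 9 of 10350 genes tested (0.087%) were called higher and 0 (0.0%) lower with the mutant fragment than with the empty vector at an adjusted p under 0.05. Among the 3345 tested genes with a member 2 were called higher (0.0598%) and none lower, near the share over all genes. Against the wild-type fragment 7 genes were called higher (0.0676%) and 0 lower, again 2 of them with a member. At an unadjusted p under 0.05 there were 599 genes with a member (17.9%), 297 higher and 302 lower, beside 15.3% of all genes. The median log2 difference was -0.02 (quartiles -0.29 and 0.23). For the wild-type fragment against the empty vector none was called, and 10 of these genes (0.299%) were under an unadjusted 0.05, beside 0.638% of all. The 2 times take the place of replicates. With 1 library per construct and time, the spread in this fit is how far the differences between constructs change from 1 time to the other. It may also be technical. The p-values here thus do not measure a spread between replicate cultures, and nothing in the labels tells whether separate cultures were used. A gene whose difference is uneven between the times gets a large SE.

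The number of calls depended on single libraries. Genes with a member called against the empty vector rose to 253 higher and 302 lower (16.8% in all, beside 15.3% of all genes tested) without the 24 h library of Nmu, and to 559 and 699 (38.1% beside 33.3%) without its other library. They were 53 and 36 without the 24 h library of Nwt, 52 and 33 without its other library, 6 and 1 without the 24 h library of pCDH and 4 and 0 without its other library. In these fits the spread comes only from the constructs that keep both libraries, and the construct left with 1 library is assumed to vary like them.

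The 2 genes called, in both comparisons, were Il1a and Pilrb2. Il1a encodes the cytokine interleukin-1α. Its RPKM was 4.49 and 1.78 in pCDH, 5.6 and 2.09 in Nwt and 66.4 and 34.3 in Nmu cells. Both mutant-fragment libraries lay above all others (log2 difference to the empty vector 3.64 ± 0.16, SE, n = 2 per construct, 12.5-fold, adjusted p = 0.0206 by limma, and 3.43 to the wild-type fragment, adjusted p = 0.0271). Its 4 members lay 256.5, 975.5, 7080.5 and 10046.5 bp upstream of the start, at chr2:129135892-129136038, chr2:129136611-129136757, chr2:129142716-129142862 and chr2:129145682-129145828. It also had 2 joint sites. Pilrb2, which encodes an activating immunoglobulin-like receptor, was at 0.35 and 0.951, at 0.253 and 0.877 and at 10.4 and 19.6 RPKM in the same order (3.24 ± 0.17, SE, adjusted p = 0.0282 by limma). Its 1 member lay 15079.5 bp upstream, and its level is given as uncertain because it has near-identical paralogs and the counting of shared reads is not stated. Pilrb2 also passed the RPKM filter through its mutant-fragment libraries alone, so its call is a description only. Both calls were lost with a pseudocount of 5 (Il1a adjusted p = 0.0689, Pilrb2 0.0992 by limma) and without the time term (0.11 and 0.0694). They were also lost without the filter on low values (0.229 and 0.247 by limma).

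Of the other inflammatory genes with a member, several were higher at both times without passing the test. Tlr2, a receptor of bacterial lipoproteins, was at 3.56 and 4.91, at 2.88 and 5.93 and at 22.2 and 30.2 RPKM with the empty vector, the wild-type fragment and the mutant fragment (log2 difference 2.37, adjusted p = 0.0524 by limma). Tnf was at 1.85 and 3.3, at 3.04 and 3.11 and at 15.9 and 18.3 (2.36, adjusted p = 0.0557), and the chemokine gene Ccl3 at 26.0 and 41.5, at 30.6 and 45.5 and at 208.1 and 159.8 (2.44, adjusted p = 0.112). In each the mutant-fragment libraries were above all others. Of the 14 cytokine genes with a member, 9 passed the RPKM filter and were tested. A gene could pass through its mutant-fragment libraries alone, which can raise the median, and the list was chosen with earlier results known. The values of these genes are therefore a description only. Among the 9, 1 was called higher and 8 were higher at an unadjusted p under 0.05 by limma. Their median log2 difference was 2.02, beside 0.00 over all genes tested. The same median was 0.49 for the 22 tested receptor genes, 0.48 for the 16 Toll-like receptor and NF-kB genes, -0.07 for the 23 signalling genes, -0.02 for the 25 cytoskeletal genes and -0.12 for the 41 transcription factors, and no gene of these lists that had a member was called. Spi1 itself was at 26.9 and 28.7, at 25.8 and 30.3 and at 47.8 and 70.2 RPKM (1.03 ± 0.19, SE, adjusted p = 0.170 by limma).

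Lcn2 and Arg1 had the largest differences among the named genes with a member, and both were uneven between times. Lcn2, which encodes the siderophore-binding protein lipocalin 2, was at 218.6 RPKM at 24 h and 1.98 at the second time with the mutant fragment, and at 0.18 or less in the other 4 libraries (log2 difference to the empty vector 4.55 ± 1.61, SE, adjusted p = 0.302 by limma). After Lcn2, Il1a and Pilrb2, the next positive differences among the named genes were those of Nfkbiz (2.90), Cd52 (2.70) and Id2 (2.63). Nfkbiz encodes an NF-kB cofactor, Cd52 a lymphoid and myeloid surface peptide and Id2 an inhibitor of basic helix-loop-helix factors. Their adjusted p lay between 0.132 and 0.203 by limma. The only member of Nfkbiz lay 91133.5 bp downstream of its start, outside the gene. Those of Cd52 and Id2 lay 2414.5 and 386.5 bp upstream. Arg1, arginase 1, a gene of alternatively activated macrophages, was at 189.7 and 22.5, at 234.4 and 20.3 and at 1.34 and 4.88 RPKM (-4.17 ± 1.21, SE, adjusted p = 0.248). Abcd2 (-2.90), a peroxisomal fatty-acid transporter, Atp6v0d2 (-2.66), F13a1 (-2.46), coagulation factor XIII A, Clec10a (-2.19), a lectin receptor, and Rasgrp3 (-2.16) were also lower at both times. Their adjusted p lay between 0.124 and 0.222 by limma. The only member of Abcd2 lay 62282.5 bp upstream of its start, that of F13a1 14343.5 bp downstream and that of Clec10a 128.5 bp upstream. Arg1, Atp6v0d2, Abcd2, F13a1, Il1a and Pilrb2 are on a list taken from an earlier account of these libraries, 6 of whose 18 genes had a member, so they add no independent evidence.

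Counted by size, 49 of 3297 tested genes with a member (1.49%) were at least 2-fold higher with the mutant fragment than with the empty vector at both times, and 26 (0.789%) at least 2-fold lower. Over the 9961 genes of at least 200 bases the shares were 0.893% and 0.592%. With a member at the start they were 1.6% and 0.801% of 999 genes. A gene could pass the RPKM filter only through the libraries where it was high, so these counts are a description only.

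Finally, the width of the H3K4me2 region under a member was set beside the RNA of the gene, for the member nearest to each start within 10 kb. This view was chosen after the data had been seen and has no test. A gene could pass the RPKM filter only through the libraries where it was high, as Slc39a4 did through those of the mutant fragment. At 41 genes at least 2-fold higher at both times, the median log2 ratio of the width, mutant fragment over empty vector, was 0.23 (quartiles -0.07 and 0.63), and 28 regions were wider and 13 narrower. At 2328 genes in between it was -0.04, with 980 wider and 1341 narrower. At 16 genes at least 2-fold lower it was -0.32 (quartiles -0.78 and -0.06), with 2 wider and 14 narrower. The ratio of the wild-type fragment to the empty vector was -0.05, -0.04 and -0.13 for the same 3 groups of genes. The lower genes were thus narrower with both fragments, with 2 wider and 14 narrower in the wild-type fragment as well. At the higher genes 18 regions were wider and 23 narrower with the wild-type fragment, so the gain in the median was seen with the mutant fragment. Single genes differed in this. The ratios with the mutant and the wild-type fragment were 2.37 and 2.36 at Cd52 and 1.66 and 1.61 at Tnfrsf1b. They were 2.41 and -0.51 at Slc39a4 and 1.45 and 0.12 at Cdkn1c. These genes were picked after their values were seen. Against the wild-type fragment the medians were 0.18, 0.0 and -0.1. Over all 2385 genes, Spearman's rho between the width ratio and the RNA difference was 0.11 for the mutant fragment and -0.0 for the wild-type fragment against the empty vector. The points share 1 empty-vector H3K4me2 library. The width is that of the called region sharing most bases with the member. A region split or merged in the calling therefore changes it, as at Bmf, with little change in the bases called. The share of bases still called was not computed for these groups of genes.

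**Figure D5:**
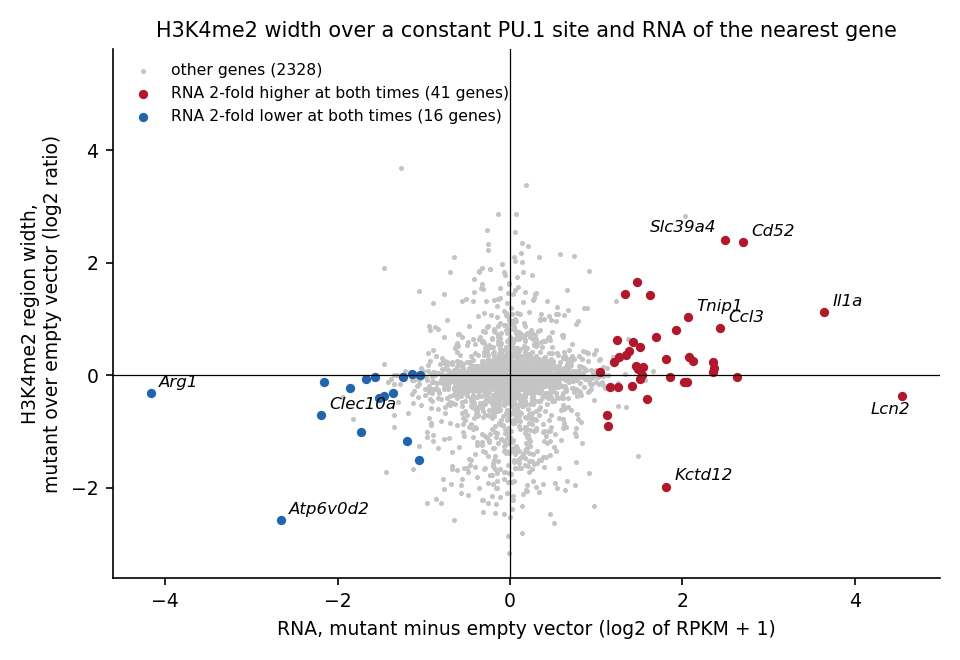
Log2 ratio of the H3K4me2 region width (vertical axis) against the log2 RNA difference (horizontal axis), mutant fragment against empty vector, 1 point per gene with a member within 10 kb of its start. The 41 genes at least 2-fold higher at both times have a median ratio of 0.23 and the 16 genes at least 2-fold lower one of -0.32.

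At Il1a the region over the 2 start members was 3654 bp wide with the empty vector, 5226 bp with the wild-type fragment and 7936 bp with the mutant fragment. At Ccl3 the widths were 2117, 1938 and 3784 bp, and at Tnf 4434, 3825 and 4632 bp. At Clec10a they were 2622, 2441 and 1604 bp, and at Atp6v0d2 4660, 2744 and 780 bp. So the regions of Ccl3 and Clec10a changed with the mutant fragment, while that of Atp6v0d2 was already narrower with the wild-type fragment, whose RNA level at Atp6v0d2 (46.6 and 17.2 RPKM) was close to that with the empty vector (41.2 and 14.2). Width did not always follow RNA. At Lcn2 the region was 643, 501 and 501 bp wide, at Id2 9799, 9451 and 9643 bp, at Arg1 2519, 2437 and 2012 bp, and at Kctd12, a gene higher with the mutant fragment, it fell from 4731 bp to 1225 and 1199 bp with the fragments. Kctd12 was singled out after its values were seen.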

How the data were processed

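Poly(A) RNA-seq (10 libraries) and ChIP-seq (12) were analysed. The authors deposited RNA values as RPKM per RefSeq transcript and ChIP data as HOMER peak lists on mm9. STAR 2.0.3e, edgeR, Bowtie and HOMER stand in the submitters' processing notes. Per the file headers, the calls of each library needed 4-fold over the input, which is named after another source than BV2 cells, 4-fold over local signal and a p of 1.00e-04, with factors at a false discovery rate of 0.001 (peak widths of 147, 134 and 134 bp for PU.1). The deposited score is 1 for every peak. Read counts were not used here.

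Peaks were intersected at 1 bp. The nearest start was taken over RefSeq transcripts of the deposited table, and genes were linked within 100 kb. The transcript with the highest mean RPKM stood for a gene. In limma 3.58.1 (R 4.3.3), genes with RPKM of 1 or more in at least 2 of the 6 BV2 libraries were fitted on log2(RPKM + 1), which understates the fold change of low genes, with Benjamini-Hochberg adjustment over all 10350. Tested on simulated data, it recovered 62% of genes changed by 2 and 90% of those changed by 4 on the log2 scale (mutant fragment against empty vector). It also called 4 unchanged genes. The simulated libraries had independent noise, no effect of time and the same change at both times. These shares therefore do not give the power in the real libraries, where differences could vary between times. RPKM steps gave the implied depth. Python 3.11.15, numpy 2.4.6, pandas 2.3.3 and scipy 1.17.1 were used. Columns of other samples numbered 0.

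Genes were named by rule: the 12 with most members, up to 4 per list with a member at the start or at least 3 members, those called, and the 6 largest differences in each direction among those in the same direction at both times. Genes named for the widest or fullest regions, their place in a list, a promoter sequence or a level in microglia were picked after their values were seen. The members and the gene lists were chosen with earlier results of these data known. Alternatives were other overlap and distance limits, leaving out each library of the rule, other RPKM limits, pseudocounts, normalization and no time term.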

Additional observations from a re-analysis of the deposited data

How the results depend on the processing

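Leaving out each of its 9 libraries gave 7710 to 9194 members, and other overlap or distance rules gave 7113 to 8951, except that barring C/EBPβ within 500 bp left 4501. Those 4501 had C/EBPα at 0.978% and a median H3K4me2 width of 2120 bp, and H3K4me2 within 500 bp instead of overlapping gave a width of 2112 bp. The share at a start was 8.26% within 500 bp and 29.7% within 2500 bp. The share with C/EBPα within 500 bp was 15.0%. The share of nearest genes expressed was 75.4% at 0.3 RPKM, 50.3% at 3 RPKM and 76.1% with starts within 10 kb. With a pseudocount of 5, with no filter or with no time term, limma called 0 nearest genes higher in each comparison with the mutant fragment, and with starts within 10 kb 1. Leaving out single RNA libraries gave 4 to 559 nearest genes called higher and 0 to 699 lower against the empty vector, 15 to 532 and 3 to 705 against the wild-type fragment, and 0 to 2 and 0 to 1 for the wild-type fragment against the empty vector. Against the empty vector, more nearest genes were called lower than higher without the 24 h library of Nmu (302 and 253) and without its other library (699 and 559). None of the recomputed log2 differences of single genes changed its sign. Shares of the gene lists, widths by RNA class and levels in primary cells were not recomputed. The labels give no replicate numbers, so the fit was blocked by time alone, and without that term the adjusted p of Il1a against the empty vector went from 0.0206 to 0.11 in limma. Motif shares under peaks were not run, as no genome of the files' build was used. One ChIP library per antibody and construct leaves depth and construct confounded, so a missing peak may be one not detectable at that depth.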
